A study of Mus musculus with 8 samples.

Results

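Fibronectin and the matricellular proteins are described here as 10 genes given by name: *Fn1*, *Postn*, *Tnc*, *Thbs1*, *Thbs2*, *Thbs3*, *Thbs4*, *Sparc*, *Spp1* and *Ctgf*. Each of the 10 had 1 probe set among the 22206 of the deposited table. All 10 probe sets were marked as expressed in both groups by the authors' software. The data are from gastrocnemius (GAS) muscles of male C57/Bl6j mice that were injected with an adeno-associated virus (AAV) at about 10 weeks of age. The labels give an age of 22 weeks at tissue collection. In 4 muscles the virus carried a short hairpin RNA (sh-RNA) against the transcript of *Mytho* (AAV sh-RNA MYTHO, here MYTHO-KD), and in 4 muscles it carried a scramble sequence (AAV sh-RNA scrmb, here scramble). Both hairpins were driven by the U6 promoter, which is active in most cell types, and the serotype was one with a tropism for skeletal muscle cells. The scramble virus went into the contralateral leg, so muscles of both groups had received virus. By the methods the right leg received the sh-RNA against *Mytho*, so that leg side and treatment cannot be told apart. RNA of the muscles, taken 12 weeks after injection, was run on Clariom S Mouse arrays.

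Fibronectin is a large glycoprotein that cells assemble into fibrils through integrins, and collagens and growth factors are then deposited on this scaffold. Matricellular proteins are secreted into the same matrix, yet they mainly change how cells adhere, migrate and respond to growth factors, and hardly bear load themselves. In skeletal muscle many of them, though not all, are scarce in the resting adult tissue outside tendon and the junction of fibre and tendon. Matricellular proteins are known to be made during regeneration and fibrosis. They come mostly from fibroblasts, fibro-adipogenic progenitors and tendon cells, and osteopontin also comes from macrophages and myoblasts.

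The table analysed gives 1 average and 1 SD per group for each probe set, on the log2 scale after the authors' SST-RMA normalization. Values of single arrays were not analysed here, so every level below is the authors' average of 4 arrays, with the authors' SD between those arrays. Levels of different probe sets are not on a common scale, and each gene is compared only with itself. The averages ran from 3.18 to 19.93 over all probe sets, and the SD had a median of 0.27 in either group. Differences are MYTHO-KD minus scramble (log2), tested with limma's moderated test from the averages and SDs. A probe set is called when it differs by at least 2-fold with an unadjusted p under 0.05, the thresholds in the methods of the study. The calls were recomputed here, and their numbers over all probe sets differ from the numbers of genes that the study reports. Adjusted p-values are Benjamini-Hochberg values over all 22206 probe sets. The target of the sh-RNA, *D230025D16Rik* (*Mytho*), averaged 10.02 in scramble and 7.71 in MYTHO-KD, a log2 difference of -2.31 (standard error 0.304, adjusted p = 0.0138, limma). Muscle fibre markers were at the top of the scale in both groups, with *Acta1* and *Myh4* at 19.93 in each, which fits the tissue label.

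In MYTHO-KD muscles 9 of the 10 genes had a higher average than in scramble muscles and 1, *Spp1*, had a lower one, where 46.9% of all probe sets had a higher average. Fibronectin, thrombospondin 4 and connective tissue growth factor rose at least 2-fold: *Fn1* by 1.35, *Thbs4* by 1.90 and *Ctgf* by 1.29 on the log2 scale. With *Fn1*, *Thbs4* and *Ctgf*, 3 of 10 members were called higher and 0 lower, against 0.860% and 0.257% of all probe sets. The members were chosen with earlier results of these data known, so the shares in this paragraph describe them and test nothing. At an unadjusted p under 0.05 without a fold limit 6 members were higher and 0 lower, against 6.48% and 5.52% of all probe sets. With a limit of 1.5-fold 5 members were called higher, *Postn* and *Sparc* in addition, against 3.54% of all probe sets. The median log2 difference of the 10 members was 0.77, and that of all probe sets was -0.01. After adjustment over all probe sets, where 0.275% had a p under 0.05, no member passed, and the adjusted p of the members lay between 0.154 and 0.655 (limma). In a whole muscle, more cells of a type and more RNA per cell cannot be told apart.

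**Figure D1:**
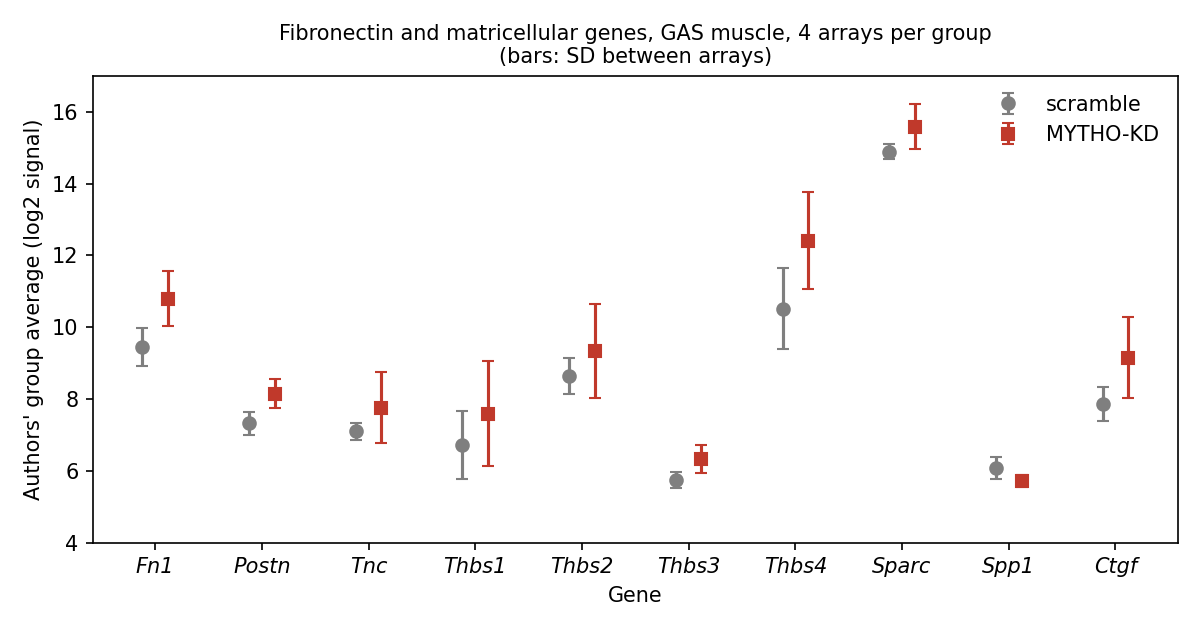
Authors' group averages (log2 signal, vertical axis) of the 10 genes (horizontal axis) in scramble (grey circles) and MYTHO-KD (red squares) GAS muscles, with bars for the SD between the 4 arrays of a group. The MYTHO-KD average lies above the scramble average for 9 genes and below it for *Spp1*, and heights of different genes are not comparable.

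*Fn1* encodes fibronectin itself and lies on chromosome 1 from 71585473 to 71653234 (mm10, minus strand). Its average was 9.44 in scramble and 10.79 in MYTHO-KD, with SDs of 0.53 and 0.77. The difference of 1.35 (standard error 0.361) corresponds to 2.55-fold, with a 95% interval from 1.48-fold to 4.40-fold (adjusted p = 0.154, limma). Its rise was the only one among the members that was called without moderation of the variances and with unequal variances too.

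Periostin and tenascin C are matricellular proteins of healing and loaded connective tissue. *Postn* (periostin, which binds collagen and integrins) lies on chromosome 3 from 54361107 to 54391041 and averaged 7.32 in scramble and 8.15 in MYTHO-KD, with SDs of 0.31 and 0.41. It was higher by 0.83 (standard error 0.231), or 1.78-fold (95% interval 1.25 to 2.52) (adjusted p = 0.169, limma). That lies below the limit of 2-fold. *Tnc* (tenascin C, which loosens adhesion to fibronectin) lies on chromosome 4 from 63959785 to 64047015. Its averages were 7.10 in scramble and 7.75 in MYTHO-KD, with SDs of 0.23 and 0.99. The difference of 0.65 corresponds to 1.57-fold, with a 95% interval from 0.872-fold to 2.82-fold (adjusted p = 0.558, limma), so that no difference and a difference above 2-fold both lie within the error.

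The thrombospondins fall into a trimeric subgroup, thrombospondins 1 and 2, which restrain the growth of vessels, and a pentameric one with thrombospondins 3 and 4 and the cartilage oligomeric matrix protein *Comp*. *Thbs4*, which is abundant in tendon and at the ends of muscle fibres, had the largest difference of all 10 members. It lies on chromosome 13 from 92751586 to 92794818 (minus strand) and averaged 10.51 in scramble and 12.41 in MYTHO-KD. Its SDs of 1.13 and 1.36 were large in both groups, and its difference of 1.90 (standard error 0.645) corresponds to 3.73-fold with a 95% interval from 1.41-fold to 9.90-fold (adjusted p = 0.263, limma). Its unadjusted p was above 0.05, and the call lost, without moderation of the variances, with unequal variances and with a trended, robust prior. *Thbs3*, on chromosome 3 from 89214050 to 89226837, averaged 5.75 in scramble and 6.32 in MYTHO-KD with SDs of 0.22 and 0.39. It was higher by 0.57 (95% interval 0.11 to 1.03, adjusted p = 0.318, limma), below 2-fold.

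Neither trimeric thrombospondin passed a threshold. *Thbs1*, on chromosome 2 from 118111876 to 118127133, is known for activating latent TGF-beta and averaged 6.72 in scramble and 7.59 in MYTHO-KD. Its SDs of 0.95 and 1.47 were larger than its difference of 0.87, whose 95% interval ran from -0.52 to 2.26 (adjusted p = 0.652, limma). *Thbs2*, on chromosome 17 from 14665500 to 14694262, averaged 8.64 and 9.34 with SDs of 0.49 and 1.31, a difference of 0.70 with an interval from -0.43 to 1.83 (adjusted p = 0.655, limma). The intervals of *Thbs1*, *Thbs2* and *Thbs4* overlap, and whether the members differ in their response was not tested, since the arrays they share could not be taken into account.

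The sequence upstream of *Thbs4* is shown because it was the most changed member, beside that of *Thbs2*, a thrombospondin that was not called, and of *Cyr61*, a relative of *Ctgf* that was called (below). Windows hold the 250 bases before a transcript start in RefSeq (GRCm38.p6, the assembly of mm10), written 5′ to 3′ on the strand of the gene, and 7 of the 10 members had a window in the table used. Capitals mark GGAATG, the core that TEAD factors bind, read on either strand. The windows are chr13:92794819-92795068 for *Thbs4*, chr17:14694263-14694512 for *Thbs2* and chr3:145649986-145650235 for *Cyr61*, all on the minus strand.
Thbs4: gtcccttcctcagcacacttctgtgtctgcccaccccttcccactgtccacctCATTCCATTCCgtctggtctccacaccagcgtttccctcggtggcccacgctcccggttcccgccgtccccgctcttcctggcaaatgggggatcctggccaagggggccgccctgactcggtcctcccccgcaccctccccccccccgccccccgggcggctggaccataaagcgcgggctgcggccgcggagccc
Thbs2: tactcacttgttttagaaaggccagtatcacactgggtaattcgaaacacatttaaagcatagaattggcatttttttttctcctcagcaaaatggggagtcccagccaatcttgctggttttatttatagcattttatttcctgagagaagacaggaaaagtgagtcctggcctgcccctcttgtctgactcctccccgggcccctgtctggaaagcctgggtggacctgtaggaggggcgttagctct
Cyr61: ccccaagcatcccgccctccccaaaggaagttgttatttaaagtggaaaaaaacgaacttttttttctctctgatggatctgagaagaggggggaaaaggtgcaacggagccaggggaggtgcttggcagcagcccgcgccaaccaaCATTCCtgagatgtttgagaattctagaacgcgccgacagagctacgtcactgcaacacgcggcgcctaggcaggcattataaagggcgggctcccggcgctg
In the *Thbs4* window 2 such matches overlap by their end base, starting at positions -197 and -192 from the transcript start, and the *Cyr61* window (*Ccn1* in RefSeq) has 1 match at -103. The other members with a window had no match. Windows of *Fn1*, *Thbs1* and *Ctgf* were not analysed here, so *Thbs4* is the only called member examined, and *Cyr61* was added after its call was seen; no relation between match and call can be read from this. Of all 32851 windows, 12.6% held at least 1 match. The 7 members had 10 windows in all, since *Postn*, *Tnc* and *Spp1* have 2 each. The 2 windows of *Tnc* overlap, and its SP1 and TATA matches are the same sites counted in both. The SMAD core CAGAC was in 7 of these 10 and in 42.2% of all windows, the SP1 core GGGCGG in 4 of 10 and in 32.7%, and the TATA box letters TATAAA in 5 of 10 and in 12.4%. Counted by member, the SMAD core was in 6 of 7, the SP1 core in 3 of 7 and the TATA letters in 4 of 7. The shares of all windows count windows and not genes. TGANTCA and TGACGTCA, which AP-1 and CREB factors bind, were in 0 of 10 and in 6.75% and 1.55% of all windows. These are matches of letters on both strands, and binding was not measured.

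*Sparc* and *Spp1* encode secreted glycoproteins that bind calcium and act on cell adhesion. *Sparc*, which helps collagen fibrils to form, lies on chromosome 11 from 55394500 to 55420080 and averaged 14.89 in scramble with an SD of only 0.21. In MYTHO-KD it averaged 15.58 with an SD of 0.63, a difference of 0.69 or 1.61-fold (95% interval 1.06 to 2.45, adjusted p = 0.344, limma). *Spp1* (osteopontin, a cytokine-like ligand of integrins and CD44) lies on chromosome 5 from 104435111 to 104441053. It averaged 6.08 in scramble and 5.71 in MYTHO-KD, with SDs of 0.30 and 0.17. Its difference of -0.37 had a 95% interval from -0.78 to 0.04 (adjusted p = 0.462, limma), so that a rise beyond 1.03-fold lies outside the interval.

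*Ctgf* encodes connective tissue growth factor, a CCN protein that is a well known target of TGF-beta and YAP signalling. It lies on chromosome 10 from 24595442 to 24598683. Its average was 7.86 in scramble and 9.15 in MYTHO-KD, with SDs of 0.47 and 1.12. The difference of 1.29 (standard error 0.455) corresponds to 2.45-fold with a 95% interval from 1.23-fold to 4.86-fold (adjusted p = 0.283, limma). As for *Thbs4*, the call depended on the variance model, and it was lost without moderation, with unequal variances and with the larger SD of the groups.

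**Figure D2:**
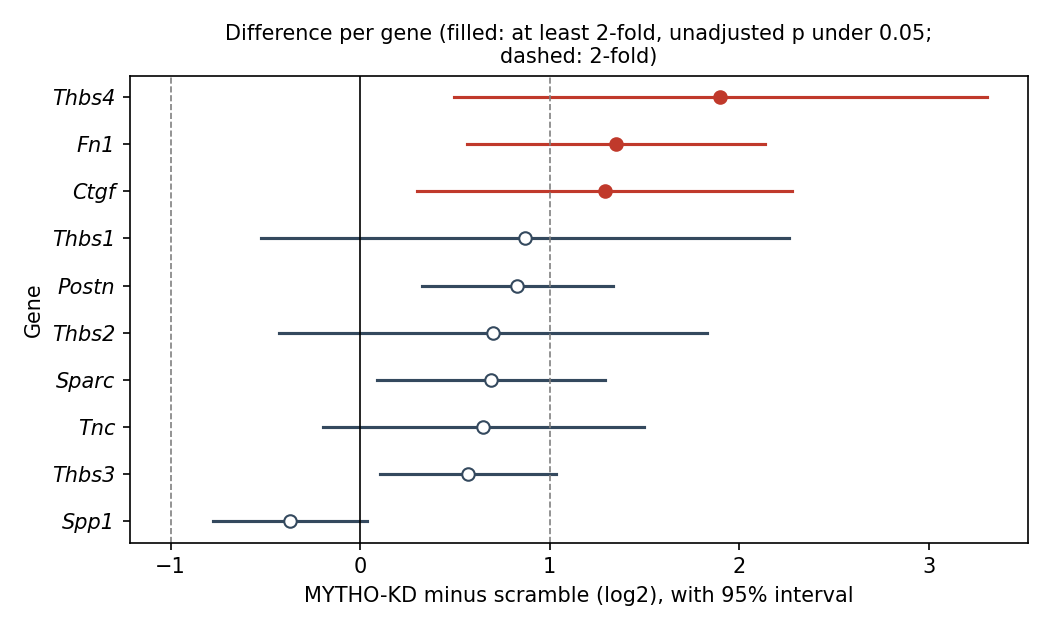
Difference of MYTHO-KD minus scramble (log2, horizontal axis) for each of the 10 genes (vertical axis), with the 95% interval of limma's moderated test. The filled points are the called genes *Thbs4*, *Fn1* and *Ctgf*, the dashed lines mark 2-fold, and the intervals of *Thbs1*, *Thbs2*, *Tnc* and *Spp1* include 0.

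The spread between muscles was wider in MYTHO-KD for 9 of the 10 members, *Spp1* being the exception. Over all probe sets the SD was larger in MYTHO-KD in 48.1%. The ratio of the SDs, MYTHO-KD over scramble, had a median of 1.66 over the members and of 1.00 over all probe sets. *Tnc* had the highest ratio, 4.30, followed by *Sparc* with 3.00, *Thbs2* with 2.67 and *Ctgf* with 2.38, while *Fn1* (1.45), *Postn* (1.32) and *Thbs4* (1.20) were closer to equal spread. No test was made of these ratios, and the members are measured on the same 8 arrays, so that 1 muscle may widen several of them. Which muscles were high could not be read from group values. If the averages are plain means, no array of 4 can lie more than 1.5 SDs from its average. These bounds left an overlap possible for all 10 members. The share of all probe sets with such an overlap was not counted, so this is not read as a trait of the members. For *Fn1* the lowest MYTHO-KD array could lie at 9.635 and the highest scramble array at 10.235.

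**Figure D3:**
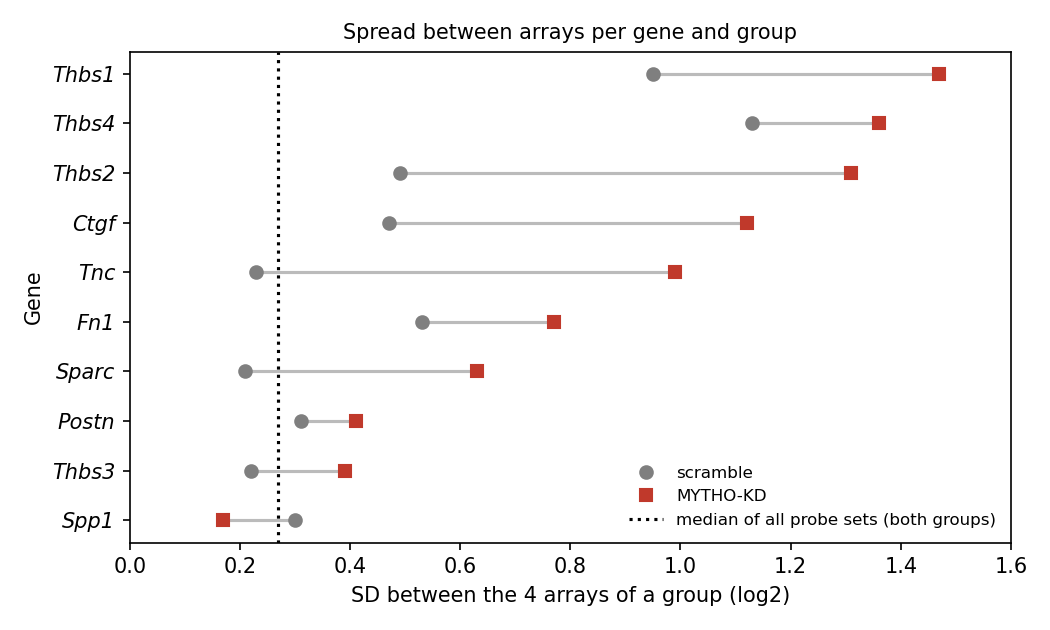
SD between the 4 arrays of a group (log2, horizontal axis) for each gene (vertical axis) in scramble (grey circles) and MYTHO-KD (red squares), with the dotted line at the median SD of all probe sets, 0.27 in both groups. The MYTHO-KD point lies to the right of the scramble point for 9 genes, most widely for *Tnc* and *Thbs2*, and to the left for *Spp1*.

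Relatives of the members held 2 calls. For this and all following lists, 0.860% of all probe sets were called higher and 0.257% lower. Of all probe sets 46.9% had a higher average and 48.1% a larger SD in MYTHO-KD. Of 21 genes of the same protein families, 17 had a higher average in MYTHO-KD and none was called lower, with a median log2 difference of 0.16. The called genes were *Cyr61*, which encodes the CCN protein closest in regulation to *Ctgf* and averaged 10.90 in scramble and 12.12 in MYTHO-KD (difference 1.22, adjusted p = 0.154, limma), and *Comp*, which averaged 6.91 and 8.05 (difference 1.14, adjusted p = 0.370, limma). *Cyr61* had similar SDs in both groups, 0.56 and 0.61. *Comp*, the pentameric thrombospondin of tendon and cartilage, had SDs of 0.82 and 0.98. The other 19 relatives were not called, and the list ran down to -0.27.

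Among 16 receptors of these proteins the median difference was 0.17, with 12 higher. Only *Lrp1*, an endocytic receptor that clears thrombospondins and proteases, reached 2-fold, exactly at the limit with averages of 9.26 and 10.26 (difference 1.00, standard error 0.291, adjusted p = 0.191, limma). At an unadjusted p under 0.05, 4 receptors were higher and 1 lower, against 6.48% and 5.52% of all probe sets. The lower one was the integrin subunit *Itgb6*, with averages of 11.92 and 11.38 (difference -0.54, adjusted p = 0.344, limma), named after its value was seen.

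Genes for assembly, cross-linking and cutting of the matrix held 4 calls. Of 18 such genes, 17 had a higher average and none was called lower, with a median difference of 0.55. *Col3a1*, a fibrillar collagen chain, rose by 1.43 (adjusted p = 0.102), the cross-linking enzyme gene *Loxl1* by 1.27 (adjusted p = 0.109), the gelatinase gene *Mmp2* by 1.17 (adjusted p = 0.199) and the protease inhibitor gene *Timp1* by 1.04 (adjusted p = 0.256, all limma). The SD was larger in MYTHO-KD for 16 of the 18. *Timp1* was marked as not expressed in scramble, where it averaged 4.46, and reached 5.50 in MYTHO-KD.

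Genes that act upstream of these proteins gave no call. Of 21 ligands, receptors and transcription factors known to act on these genes, most of them of the TGF-beta, YAP and SRF pathways and with *Scx*, *Runx2* and *Hif1a* besides, 15 were higher, and the median difference was 0.14. At an unadjusted p under 0.05, 5 were higher and 2 lower, against 6.48% and 5.52% of all probe sets. The ligand gene *Tgfb3* averaged 10.60 in scramble and 11.49 in MYTHO-KD (difference 0.89, standard error 0.196, adjusted p = 0.0920, limma), and *Yap1*, a coactivator that works through TEAD factors, averaged 7.75 and 8.53 (difference 0.78, adjusted p = 0.221, limma). The lower ones, *Tead2* (difference -0.50) and the SRF coactivator gene *Mkl2* (difference -0.56), were named after their values were seen. Of 12 other targets of these pathways 9 were higher, with a median of 0.32, and 1 was called. This was *Bgn*, encoding the small proteoglycan biglycan, which averaged 10.90 in scramble and 12.84 in MYTHO-KD (difference 1.94, standard error 0.294, adjusted p = 0.0290, limma).

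**Figure D4:**
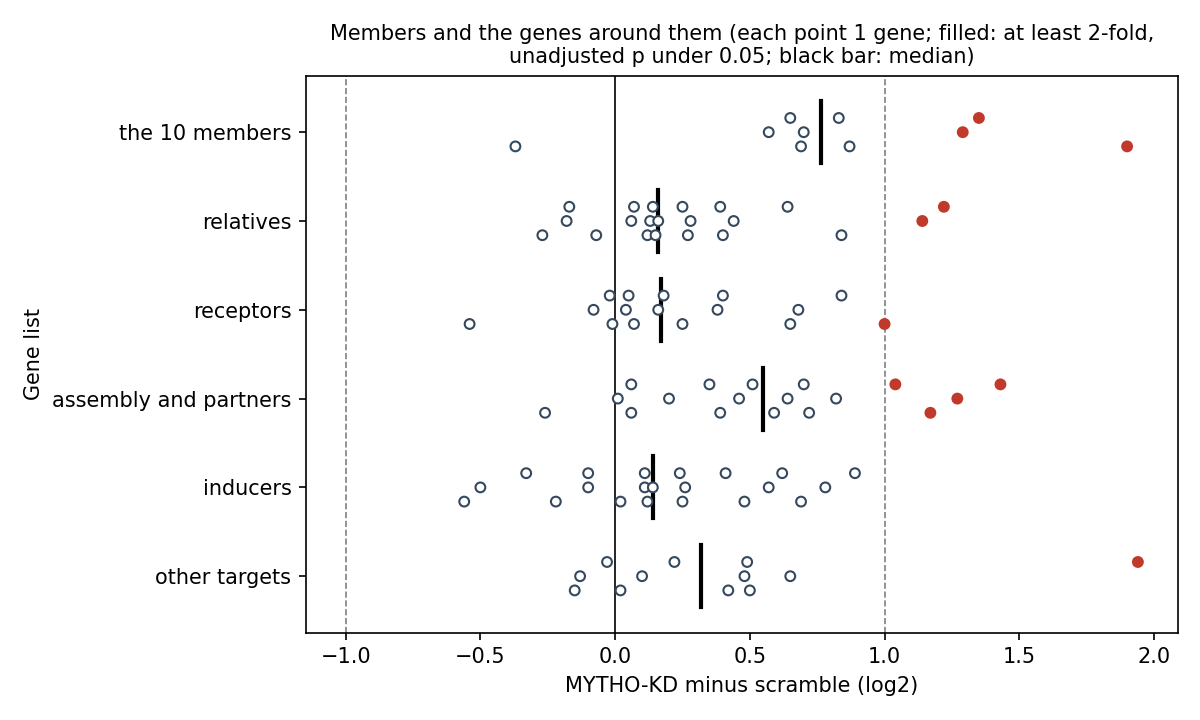
Difference of MYTHO-KD minus scramble (log2, horizontal axis) for the members and for the genes of 5 lists around them (vertical axis), with 1 point per gene, filled where called, and a black bar at the median of each list. The median of the members is 0.77, that of the assembly list 0.55, and those of the relatives, receptors, inducers and other targets lie between 0.14 and 0.32.

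Most markers of fibroblasts, tendon and macrophages, which can make these proteins, also had a higher average. All 10 fibroblast and fibro-adipogenic progenitor markers were higher in MYTHO-KD, 4 were called, and their differences ran from 0.18 to 1.49 with a median of 0.77. The called ones were *Lum* (difference 1.49, adjusted p = 0.0443, limma), *Col3a1*, *Pi16* (1.14) and *Mfap5* (1.08), while *Dcn*, the brightest, averaged 16.58 and 16.86. The log2 of the summed level of the list, mostly *Dcn*, was 16.86 in scramble and 17.24 in MYTHO-KD, and is no measure of the list as a whole. The lowest average in the list was 6.89, for *Pdgfra* in scramble. Its difference of 0.18 was the smallest in the list (adjusted p = 0.766, limma). *Pdgfra* was named after its value was seen. Their part in the rise of *Fn1*, *Ctgf* and the other members was not tested.

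Tendon markers stand beside *Thbs4* and *Comp*. Of 7 tendon markers 6 were higher, with a median difference of 1.03 and a range from -0.04 to 1.40, and only *Comp* itself was called. The brightest, *Fmod* (fibromodulin), averaged 12.72 in scramble and 14.12 in MYTHO-KD, with SDs of 1.18 and 2.11, and its difference of 1.40 had an adjusted p = 0.574 (limma). The log2 of the summed level of the list was 12.95 and 14.30, which is mostly *Fmod* alone and is no measure of the list as a whole. The SD was larger in MYTHO-KD for 6 of the 7. Whether the amount of tendon in the pieces of muscle differed between arrays, and its part in the difference of *Thbs4*, was not tested.

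Macrophage markers stand beside *Spp1*, *Fn1* and *Thbs1*, which macrophages can also make. All 12 were higher, with a median difference of 0.70, and 4 were called: *Cd68* (2.53, adjusted p = 0.0182), *Lyz2* (1.94, adjusted p = 0.0277), *C1qb* (1.27, adjusted p = 0.0754) and *Gpnmb* (1.13, adjusted p = 0.146, all limma). The group average of *Spp1* was 6.08 in scramble and 5.71 in MYTHO-KD, and it was not called (difference -0.37, adjusted p = 0.462, limma). Its scramble average lay below the median scramble average of all probe sets, 6.81. Probe sets have no common scale, so this is no measure of how abundant *Spp1* was. Group averages cannot show whether *Spp1* was low in the same muscles in which these markers were high. The log2 of the summed level of the macrophage list was 11.11 in scramble and 12.36 in MYTHO-KD. This sum is weighted to the brightest genes, such as *Lyz2* and *Mrc1*, and is no measure of the list as a whole. The part of macrophages in any member's value was not tested.

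The other lists held 3 calls in all. Endothelial markers were higher in 7 of 7 (median 0.37, none called), and smooth muscle and pericyte markers in 5 of 7 (median 0.14, none called). Platelet markers were higher in 3 of 7 (median -0.03), Schwann cell markers in 3 of 6 (median -0.06), adipocyte markers in 1 of 5 (median -0.28) and bone and cartilage markers in 1 of 5 (median -0.05), with none called in these lists. The brightest of these markers were *Cdh5* (difference 0.37), *Rgs5* (0.14), *Gp9* (-0.68), *Pmp22* (0.28), *Fabp4* (0.04) and *Sp7* (-0.04). Of 8 satellite cell and regeneration genes 4 were higher and 2 were called: the fusion gene *Mymk*, listed as *Tmem8c* (difference 1.77, adjusted p = 0.0749, limma), and the embryonic myosin gene *Myh3* (difference 1.27, adjusted p = 0.366, limma). The brightest, *Myh8*, was at the top of the scale, 19.93, with an SD of 0 in both groups. It could not show a rise, so its lack of a difference is not read. Of 6 liver genes all were higher, with a median of 0.53, and *Alb* was called, with averages of 8.32 and 10.98 and SDs of 1.34 and 2.28 (adjusted p = 0.291, limma). Of the 9 muscle fibre markers, *Acta1* and *Myh4* were at the top of the scale with an SD of 0 in both groups and could not show a rise, so the median of this list is not read. None was called, and 2, named after their values were seen, had an unadjusted p under 0.05: *Mb* (myoglobin) averaged 18.82 in scramble and 19.75 in MYTHO-KD (difference 0.93, adjusted p = 0.0754, limma), and *Myh1* (a fast myosin) averaged 17.58 and 18.17 (difference 0.59, adjusted p = 0.230, limma).

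**Figure D5:**
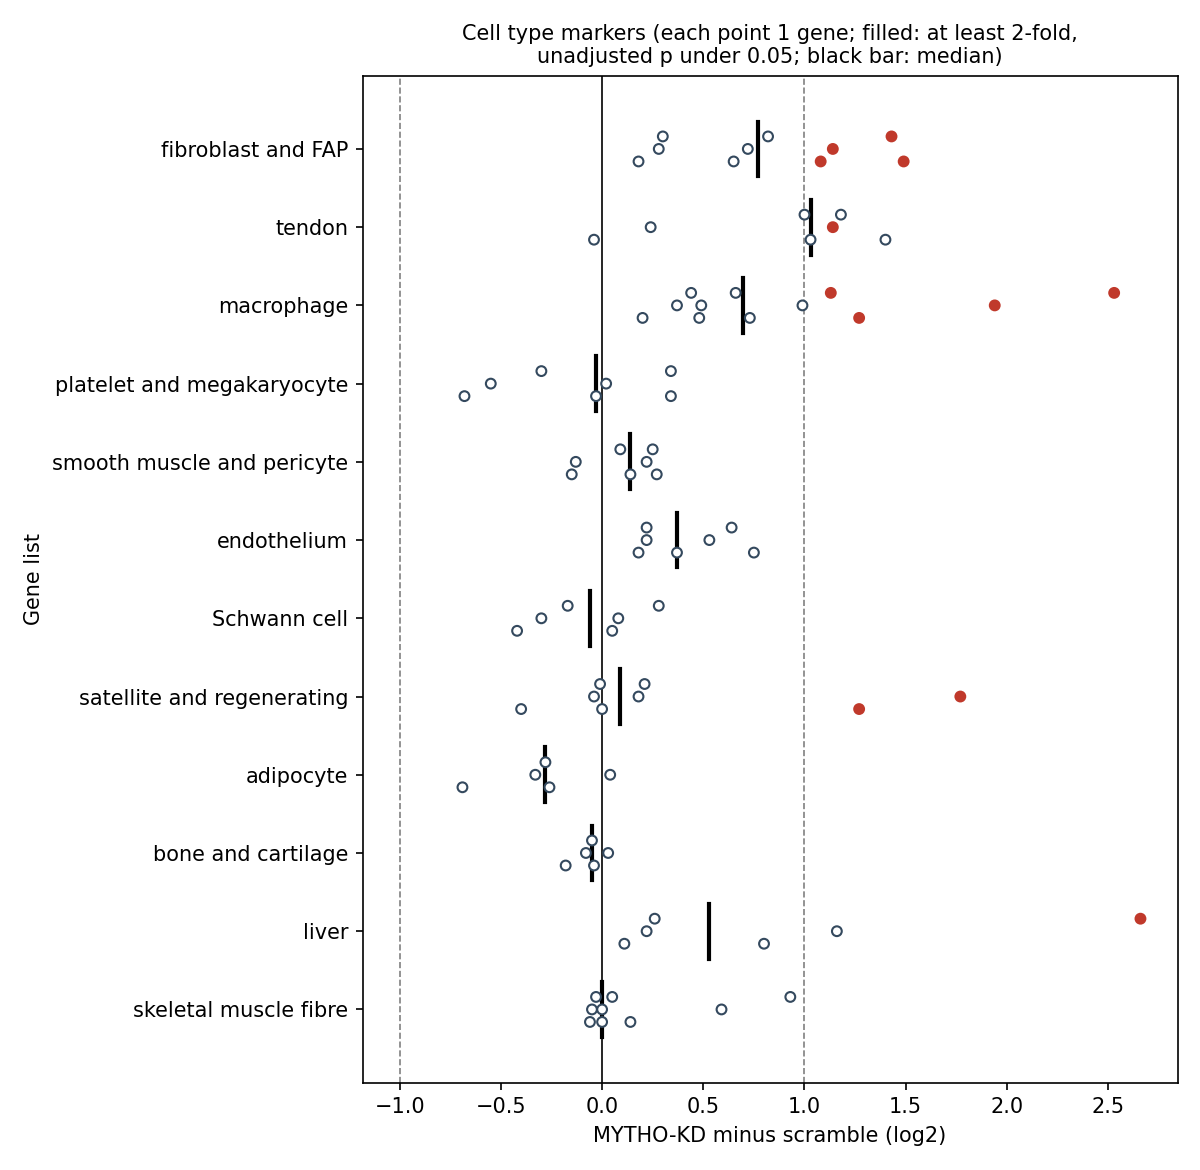
Difference of MYTHO-KD minus scramble (log2, horizontal axis) for markers of 12 cell types or tissues (vertical axis), with 1 point per gene, filled where called, and a black bar at each median. The medians are highest for tendon (1.03), fibroblasts and fibro-adipogenic progenitors (FAP, 0.77) and macrophages (0.70), and the median of muscle fibres rests on probe sets at or near the top of the scale.

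The members lie at separate places in the genome, and only *Postn* and *Thbs3* share a chromosome. Of the 20 probe sets that lie nearest to a member on either side, 9 were higher, 1 had an unadjusted p under 0.05, none was called, and their differences lay between -0.57 and 0.42 with a median of -0.03. For *Thbs4* these were *Serinc5* (difference -0.05) and *Mtx3* (0.06), for *Ctgf* they were *Moxd1* (-0.26) and *Enpp1* (0.42), and for *Fn1* they were *Atic* (-0.16) and *Apol7d* (0.05), whose span overlaps that of *Fn1* on the other strand. *Thbs3* overlaps both probe sets of *Mtx1*, on the opposite strand, which averaged 8.98 and 6.31 in scramble and 8.97 and 6.18 in MYTHO-KD. The difference of *Thbs3* was thus not seen in either of these neighbours.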

How the data were processed

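Total RNA of 8 GAS muscles (4 MYTHO-KD, 4 scramble) was measured on Clariom S Mouse arrays. Per the methods, the authors' gene-level signals come from SST-RMA as run by default in Transcriptome Analysis Console software. The submitters' processing notes also name the Affymetrix Expression Console, RMA and mm10. The deposited table has 28 columns with a decimal comma. Used here were 6: the authors' average (log2), SD and expression flag of each group. Its columns of fold change, p-value and false discovery rate hold the authors' own comparison and were not used. The kind of average is not given in the sources used here; if it is not a plain mean, the p-values are approximate. 0 columns of single arrays were left unused.

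The pooled variance of each probe set (6 degrees of freedom) was moderated with squeezeVar of limma 3.58.1 in R 4.3.3 (prior SD 0.284, prior degrees of freedom 5.85). All tests were two-sided, with Benjamini-Hochberg adjustment over 22206 probe sets. The computation was checked on simulated arrays. Differences were rounded to 2 decimals, as the averages are. By the methods the legs of a mouse received different viruses, so 4 separate muscles of one group would come from 4 mice. The labels do not name the mouse of a sample. The p-values therefore measure the spread between these samples, which may be partly technical, and legs of one mouse could not be paired. The precision is limited by the number of arrays, 4 in each group.

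A member is the probe set that names it, the brightest if several. Members and gene lists were chosen with earlier results of these data known. Named are all members, *D230025D16Rik*, in each list around the members every called gene (or the 2 with the largest difference) and any with an adjusted p under 0.05, and in each marker list the brightest and every called gene; others are marked. The neighbours named are those of the called members and of *Thbs3*, chosen after their values were seen. Some genes stand in more than 1 list (*Col3a1*, *Comp*, *Col1a1*, *Scx*, *Ibsp*, *Acta2*, *Tagln* and *Cnn1*). Alternatives tried: unmoderated variances, a trended and robust prior, unequal variances, the larger SD, removal of dim rows (mean level below 5.715, percentile 30), 1 probe set per symbol, other thresholds and centring on the median.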

Additional observations from a re-analysis of the deposited data

How the results depend on the processing

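The alternatives left the members' differences as they were, except that centring on the median shifted all of them alike, so they bear on the calls and not on the directions. Of 9 alternatives *Fn1* was called in 8, *Thbs4* and *Ctgf* in 5 each, and the adjusted p of the members lay between 0.0817 and 0.924 over all settings. Members called (3) numbered 1 without moderation and with unequal variances, 5 at 1.5-fold (against 3.54% of all probe sets) and 0 at 2-fold with an adjusted p under 0.05. At 1.5-fold *Postn* (0.83) and *Sparc* (0.69) joined them. *Thbs4* (1.90) lost its call without moderation, with unequal variances and with the trend, *Ctgf* (1.29) without moderation, with unequal variances and with the larger SD, and both with *Fn1* (1.35) at an adjusted p under 0.05. Members with an unadjusted p under 0.05 (6) numbered 3 without moderation and 2 with unequal variances. The share of all probe sets under that p was not counted at these settings. An adjusted p under 0.05 was reached by 61 probe sets in the main setting, against 2 without moderation, 2 with unequal variances, 3 with the larger SD and 189 with the trend and robust fitting. The calls over all probe sets, 191 higher and 57 lower, numbered 159 and 53 without moderation and 153 and 48 with unequal variances. They numbered 787 and 500 at 1.5-fold and 38 and 19 at 2-fold with an adjusted p. Of 153 counts per list and alternative, 27 moved by over 1.5 times. Members have 1 probe set each, so no other probe set could be tried. No paired analysis was possible because the columns give group averages and carry no replicate numbers, and for the same reason leaving out single arrays was not run. The cause of these shifts was not tested beyond the change of setting.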
